A study of Bos taurus with 35 samples.

Results

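A set of 37 genes, of 24596 in each count table, was described here because their levels differed from animal to animal in the same way in omental fat (O) and subcutaneous fat (S). They were chosen by measured values. A gene had to have 10 or more counts in every O and S library, a Pearson r of 0.9 or more between its O and S levels over the 9 animals, and a standard deviation (SD) of 0.5 or more in each of these tissues. Its median levels in O, S and intramuscular fat (I) had to lie under 2-fold apart, those of all 4 tissues within 16-fold, and it could not be among the genes that the study picked for its own PCR check. Levels are CPM (a gene's counts as a share of the library's counts on genes, corrected with TMM factors), and r and SD were taken on log2 CPM. Of the 24596 genes, 11514 passed the count limit, 261 of these the limit on r, 49 of these the limits on SD and 37 the limits on the medians. The agreement between O and S, and the size of the differences there, were fixed by this choice and were not tested. Whether the same animals were high or low in I and in muscle (M) was not part of the choice, and that is the question of the comparisons made here.

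The libraries were RNA-seq of mRNA, taken from total RNA with oligo-dT beads, from 9 Hanwoo cattle (Bos taurus coreanae, a Korean beef breed) aged 30 months and kept at an experimental station. O was taken at the abomasum, and S and I with muscle from a rib section after slaughter. Animals 1, 4 and 7 were labelled female, animals 2, 5 and 8 castrated male and animals 3, 6 and 9 male, although the study's methods call the cattle steers. There were 9 O libraries, 9 S libraries, 8 I libraries (animals 1 to 8) and 8 muscle libraries (animals 1 to 6, 8 and 9), 34 in all, with 1 library per animal and tissue, so that an animal and the handling of its samples cannot be told apart. The labels also list an I sample of animal 9, which was not analysed here. The labels name no treatment. A library is called by its tissue letter and animal number (O1 to M9).

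The level of a gene in a tissue can differ between animals through inherited variants near the gene, through hormones, feeding and immune state, through the mixture of cells in the piece sampled, and through how the RNA was kept and read. Fat depots hold adipocytes, which store and release lipid, with fibroblasts, vessels and immune cells between them, and intramuscular fat lies between bundles of muscle fibres. In bulk tissue, fewer cells of a type and less RNA per cell cannot be told apart. The tables and the reference tables used here do not pair the 37 identifiers with gene names, so they are given by Ensembl identifier and nothing is said of their roles.

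Counts on genes were 3726376 to 7184022 per library, with a median of 5428462. The members' own counts in O and S ran from 11 to 9151, and for 33 of the 37 the SD between animals was over 2 times what counting alone gives at the gene's lowest count (1.77 times at the least, median 3.29). The tissue labels were checked on the genes with a known name. TPM2, a tropomyosin of muscle fibres, was at 21910 to 51130 CPM in M, 839 to 2023 in I and 70.7 to 262 in O and S. FASN, the fatty acid synthase of fat cells, was at 1155 to 5090 CPM in O, 1062 to 8344 in S, 217 to 1470 in I and 49.2 to 123 in M.

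2 libraries stood apart and bear on what follows. The library labelled muscle replicate 4 (M4), of an animal labelled female, held 53 to 252 counts of 5 genes that had at most 1 count in each of the 10 other female libraries, where male muscle libraries held 25 to 388. These 5 genes had been picked because O and S from females had at most 3 counts in all and O and S from males at least 50 each. M4 therefore went against its label, and r in M is given with and without animal 4 for the same genes and groups. In I5 a large share of genes was low. It was the lowest of the 8 I libraries for 31.6% of 11024 genes, and r in I is given with and without animal 5 for the genes described singly and for the groups.

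The 37 genes did not share a single animal pattern. Clustering of their mean O and S levels (average linkage of 1 - r, at 0.5) gave 7 profile groups, of 24, 4, 3, 2, 2, 1 and 1 members. Over all members r between O and S was 0.9001 to 0.983, against a median of 0.545 and quartiles of 0.297 and 0.724 over the 11514 genes, values that the choice fixed. Of 562 genes that met every limit but r, those closest to the limit were ENSBTAG00000008109 (r 0.9001), ENSBTAG00000007288 (0.9004) and ENSBTAG00000002069 (0.9015) inside it, and ENSBTAG00000020116 (0.8993), ENSBTAG00000003378 (0.8996) and ENSBTAG00000019376 (0.8998) outside.

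**Figure D1:**
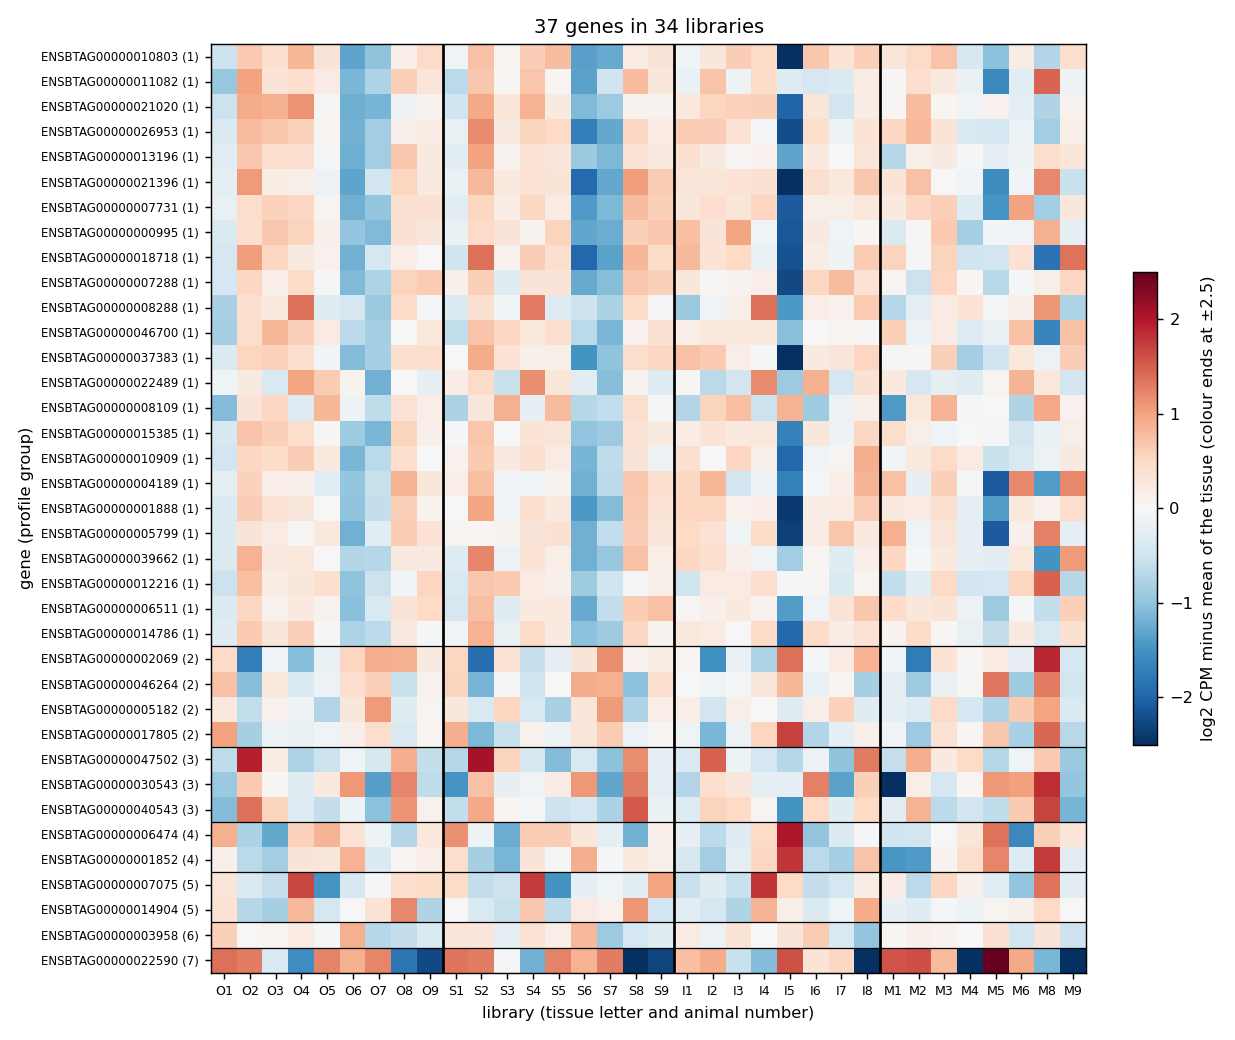
Each row is 1 of the 37 genes, with its profile group in brackets, and each column 1 of the 34 libraries; colour is log2 CPM minus the gene's mean in that tissue, and black lines part tissues and groups. In O and S nearly all of the 24 genes of group 1 are low in animals 6 and 7, whereas in I 23 of the 24 lie below the mean in I5, the exception being ENSBTAG00000008109.

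Group 1 held 24 of the 37 genes, and its shared feature in O and S was a low level in animals 6 and 7. In O the median of its members lay 1.07 below the tissue mean on the log2 scale in animal 6 and 0.77 below it in animal 7, and in S these medians lay 1.20 and 0.97 below. O6 was the lowest O library for 18 members and O7 for 5, and S6 was the lowest S library for 19 and S7 for 4. Over the 11514 genes, animals 6 and 7 were the lowest pair in the mean of O and S for 17.0%, and nothing is read from this because the choice used these values. Animal 1 was below the O mean for all 24 members and below the S mean for 18. Animal 2 was highest for 10 members in O and 14 in S. Animals 6, 7 and 1 are labelled male, female and female. Members' medians ran from 10.4 to 170 CPM in O and 7.03 to 179 CPM in S, and the highest library stood 2.69- to 5.21-fold above the lowest in O and 3.08- to 11.4-fold in S. The mean profiles of its members were alike, with a median pairwise r of 0.90 (lowest 0.19), as the clustering fixed.

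In I the low library was another. I5 was the lowest of 8 for 21 of the 24 members, where it was lowest for 31.6% of all genes, and it lay more than 2-fold below the median of the other I libraries for 20 of the 24, where it did so for 18.0% of all genes. The median difference of the 24 was -2.17 on the log2 scale. Animal 5 was near the middle in O (median 0.06 above the tissue mean) and S (0.26 above). In M the low library was again that of animal 5, less deeply. M5 was lowest of 8 for 11 of the 24 members, against 17.5% of 9512 genes, and over 2-fold lower for 8 of the 24, against 7.11%, with a median difference of -0.64. Animal 6 was not low in M, where the median of M6 lay 0.13 above the tissue mean, and M has no library of animal 7. The choice of members used neither I5 nor M5, apart from the limits on medians. The 24 were grouped for varying together in O and S, and each count rests on a single library. They are thus not independent observations of that library. Against the I mean, which I5 lowers, the medians of I6 and I7 were 0.19 and 0.06, and the other 5 I libraries stood at 0.22 to 0.36. I7 was thus the lowest after I5, by much less than in O and S, while I6 was hardly set apart from I4 and I3, both at 0.22. I7 was among the 2 lowest I libraries for 9 of the 24 members, a count for which no share of all genes is given.

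**Figure D2:**
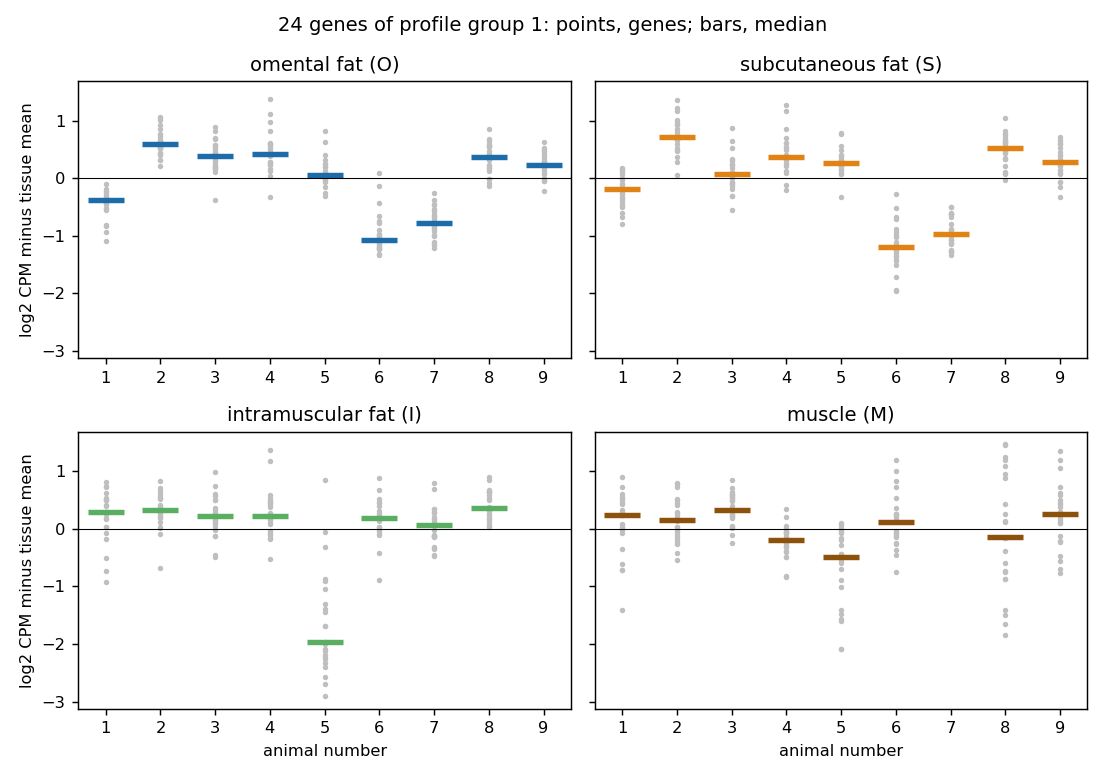
Points are the 24 genes of group 1, bars their median, and the vertical axis is log2 CPM minus the gene's mean in that tissue, by animal number. Animals 6 and 7 are lowest in O and S, with medians of -1.07 and -0.77 in O, and animal 5 is lowest in I, at -1.96, and in M, at -0.49.

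The share of reads that HTSeq set aside because they did not align uniquely was high in the libraries with low levels of these genes in S, and less regularly so elsewhere. In S it was 10.8% in S6, 10.2% in S7 and 9.61% in S1, and 6.65% to 8.03% in the other S libraries. In O it was 9.70% in O6, 9.67% in O4, 8.97% in O1 and 7.49% in O7, and 6.79% to 8.09% in the others, so that O4 and O7 did not follow. I5 had 15.4%, I4 had 13.1% without low levels of these genes, and the other I libraries had 8.22% to 9.92%. M8 had 14.5% and M5 11.3%, and the other muscle libraries 7.97% to 9.39%, so that M8, with a group 1 median of -0.15, did not follow either.

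The levels of 5 genes with a known name, chosen as markers of macrophages, muscle or fat synthesis, also differed between animals. The macrophage receptor CD163 was low in animals 6 and 1, at 294.5 CPM in O6 and 474 CPM in O1 (median 629) and at 309 CPM in S6 and 219 CPM in S1 (median 535), but not in animal 7, at 629 CPM in O7 and 564 CPM in S7. ITGAM, an integrin of myeloid cells, was at 43.35 CPM in O1, 53.25 in O7 and 82.2 in O6 (median 127), the 3 lowest O libraries. In S it was lowest in S1 and S6, at 21.85 and 30.4 CPM (median 55.9), and highest in S7, at 70.8 CPM. DGAT2, an enzyme of triglyceride synthesis, was highest in animal 6 in both depots, at 4419 CPM in O (median 2397) and 4471 CPM in S (median 3103). O7 and O1 came next in O, at 3972 and 3155 CPM, and S7 and S1 were at 3338 and 3153 CPM. FASN was highest in O6, O1 and O7, at 5090, 3983 and 3227 CPM against a median of 2388. In S, FASN was below the median of 4175 CPM in S6 and S7, at 3159 and 2161 CPM, and above it in S1, at 5993 CPM. TPM2 was highest in O1, at 247 CPM (median 156), and in S7, at 262 CPM (median 168). In the libraries of animal 5, TPM2 was the highest of its tissue, at 2023 CPM in I5 (median 1454) and 51130 CPM in M5 (median 30480). ITGAM was at 19.06 CPM in I5 (median 10.6), second highest there, and at 2.92 CPM in M5 (median 1.61), the highest. CD163 was at 126 CPM in I5 (median 109), FASN at 422 CPM (median 599) and DGAT2 at 770.3 CPM (median 629). The part of read alignment or of cell mixture in the pattern of group 1 was not tested.

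**Figure D3:**
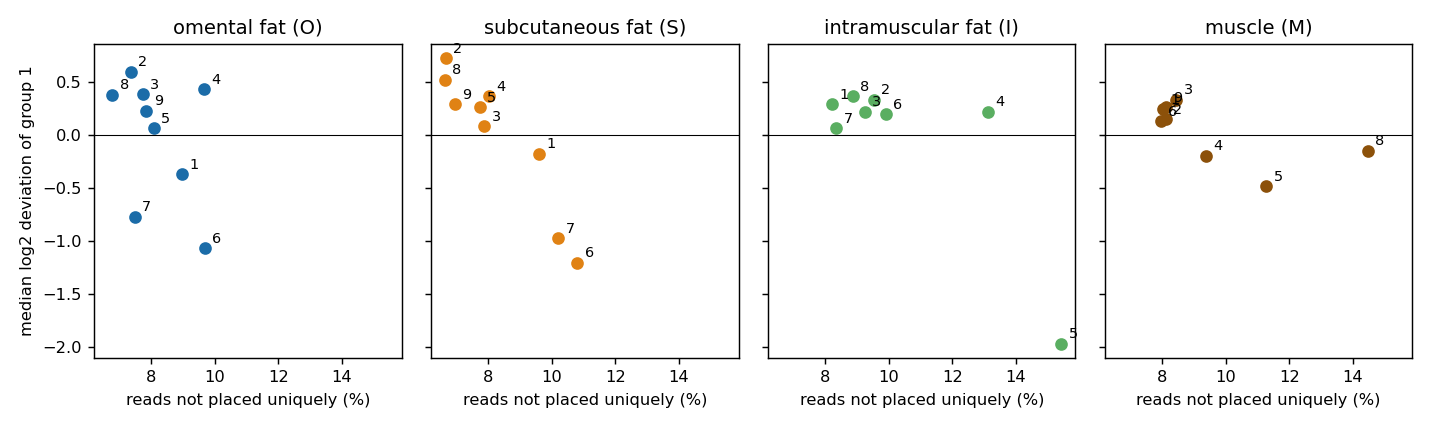
Each point is a library, numbered by animal; the horizontal axis is the percentage of reads set aside as not uniquely aligned and the vertical axis the median log2 deviation of the 24 genes of group 1 from the tissue mean. S6, S7 and I5, with 10.8%, 10.2% and 15.4%, are low on the vertical axis, while I4, with 13.1%, is not, and M8, with 14.5%, is only at -0.15.

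The members of group 1 with the largest spread, taken as the smaller of the SDs in O and S, were ENSBTAG00000010803, ENSBTAG00000011082 and ENSBTAG00000021020, and they behaved differently outside these depots. For ENSBTAG00000010803, r between O and S was 0.935. Omental fat gave 6.93, 15.9, 13.4, 18.1, 12.6, 3.8, 4.86, 11.4 and 14.1 CPM in animals 1 to 9, and subcutaneous fat gave 8.38, 15.2, 9.41, 14, 15.6, 3.31, 3.54, 10.5 and 11.3 CPM. O6, O7, S6 and S7 were the lowest libraries, with O6 4.76-fold and S6 4.69-fold below the highest of its tissue. Intramuscular fat gave 11.5, 14.8, 18.7, 17.1, 1.31, 19.6, 15.4 and 18.4 CPM in animals 1 to 8, and muscle gave 17.9, 20.7, 24.1, 10.9, 7, 16.6, 8.63 and 19.9 CPM in animals 1 to 6, 8 and 9. I5 stood alone far below the other I libraries, and r of I with the mean of O and S was -0.30 (too few counts in I5 for the test), or -0.06 without animal 5. In M, r was -0.21 (exact permutation test over 8 animals, p = 0.654), or -0.14 without animal 4. For ENSBTAG00000010803, refits without 1 animal each gave r from -0.40 to -0.06 in I and from -0.35 to -0.08 in M.

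ENSBTAG00000011082 had an r between O and S of 0.943. Omental fat gave 4.8, 19.6, 11.9, 12.8, 11, 4.14, 5.46, 14.5 and 11.8 CPM in animals 1 to 9, and subcutaneous fat gave 4.04, 10.9, 6.83, 11, 7.03, 2.41, 4.59, 11.6 and 8.15 CPM. Animals 1, 6 and 7 were the 3 lowest in both depots. Intramuscular fat gave 7.25, 13.7, 7.51, 11.4, 6.55, 6.09, 6.45 and 9.46 CPM in animals 1 to 8, and muscle gave 1.67, 2.27, 1.98, 1.41, 0.292, 1.28, 5.03 and 1.44 CPM in animals 1 to 6, 8 and 9. I5 was not set apart here, animals 2 and 4 were highest in I as they were among the highest in O and S, and r in I was 0.81 (exact permutation p = 0.0164, Benjamini-Hochberg adjusted p = 0.499 over 10313 genes). Without the 2 animals farthest from the median (1 and 6), r in I was 0.84, and without animal 5 it was 0.89. Levels in M were too low for the test, with r 0.31 as a description, or 0.34 without animal 4. For ENSBTAG00000011082, refits without 1 animal each gave r from 0.77 to 0.89 in I and from 0.12 to 0.52 in M.

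ENSBTAG00000021020 had an r between O and S of 0.962, the highest in group 1. Omental fat gave 17.6, 49.6, 48.1, 56.7, 26.4, 10.9, 11.4, 23.5 and 27.3 CPM in animals 1 to 9, and subcutaneous fat gave 20.8, 57.2, 36.7, 54.3, 34.8, 13.6, 15.7, 31.6 and 31.6 CPM. Animals 2 and 4 were the highest and 6 and 7 the lowest in both. Intramuscular fat gave 39.4, 47.3, 48.9, 49.4, 7.86, 40.6, 23.6 and 37.3 CPM in animals 1 to 8, and muscle gave 92.8, 157, 95.3, 87.5, 98.3, 77.5, 54.3 and 97.9 CPM in animals 1 to 6, 8 and 9. I5 was again the lowest and the range in M, from 54.3 to 157 CPM, was narrower, with r of 0.22 in I (exact permutation p = 0.661) and 0.46 in M (p = 0.229). The value in I turned on animal 5, without which r was 0.73, and r in M was 0.56 without animal 4. For ENSBTAG00000021020, refits without 1 animal each gave r from 0.11 to 0.73 in I and from 0.22 to 0.58 in M.

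ENSBTAG00000008109, nearest the limit on r, was the group 1 member with the highest r in I and in M. Omental fat gave 9.59, 26, 30.1, 16.6, 37.1, 19, 13.2, 26.8 and 23.3 CPM in animals 1 to 9, and subcutaneous fat gave 12.9, 27.5, 42, 19.5, 39.1, 13.7, 14.7, 30.6 and 21.7 CPM. Its order of animals differed from that of the group, since animals 3 and 5 were highest and animal 1 was lowest in both depots. Intramuscular fat gave 11.3, 28.2, 32.2, 13, 34.6, 10.2, 17.1 and 20.6 CPM in animals 1 to 8, and muscle gave 2.5, 8.79, 13.3, 7.03, 7.29, 4.16, 14.4 and 7.8 CPM in animals 1 to 6, 8 and 9. Animals 3 and 5 were also the highest in I, and r in I was 0.89 (exact permutation p = 0.00806, adjusted p = 0.443). Without animals 1 and 5, r was 0.82, and without animal 5 alone 0.85. In M the r was 0.84 (0.86 without animal 4), given as a description because M counts fell to 6. For ENSBTAG00000008109, refits without 1 animal each gave r from 0.85 to 0.93 in I and from 0.67 to 0.96 in M.

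Of the other 20 members of group 1, none of those tested passed an unadjusted p of 0.05 with r above 0 in I or M. Over all genes 7.35% did so in I and 4.41% in M. Of all 24 members, 22 could be tested in I and 18 in M. Over all 24, r in I ran from -0.32 to 0.89 with a median of 0.02, and 4 were above 0.5, where 21.4% of all genes were. In M, r ran from -0.44 to 0.84 with a median of -0.03, and 3 were above 0.5, where 17.0% of all genes were. The shares of all genes above 0.5 are over genes that could be tested, while the 24 include members that could not. Without animal 5, the median r in I of the 24 was 0.48 and 11 were above 0.5, and in M the median was 0.03 and 5 were above 0.5. Without animal 4 the median in M was also 0.03, and 4 were above 0.5. The shares of all genes above 0.5 without these animals are not given, so nothing about the members is read from the changed counts. At the unadjusted p the share of all genes in I also rose without animal 5, from 7.35% to 11.1%.

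The other 13 members fell into 6 smaller groups. For 9 of these 13 r in I was above 0.5, where 21.4% of all genes reached it. The median in I was 0.67 and the range from 0.15 to 0.96. In M, r was above 0.5 for 6 of the 13, where 17.0% of all genes reached it, with a median of 0.31. These shares are over the genes that could be tested, while the 13 include members with too few counts for the test. Without animal 5 the median in I was 0.89, and without animal 4 the median in M was 0.29. The median in M also depended on single animals, from 0.15 without animal 5 to 0.40 without animal 1. The difference between these 13 and group 1 was not tested.

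ENSBTAG00000022590 was the sole member of group 7 and had the widest differences between animals of all 37 genes, with an r between O and S of 0.983 and SDs of 1.51 and 1.59. Omental fat gave 169, 159, 50.1, 22, 153, 120, 152, 18.2 and 13.3 CPM in animals 1 to 9, and subcutaneous fat gave 165, 158, 63.4, 28, 153, 119, 157, 11.1 and 12.9 CPM. The highest library was 12.7-fold above the lowest in O and 14.8-fold in S. Animals 8 and 9 and then 4 were lowest, animal 3 was intermediate, and animals 1, 2, 5, 6 and 7 were all at 119 CPM or more. Intramuscular fat gave 158, 177, 63.4, 43.5, 280, 118, 132 and 16.2 CPM in animals 1 to 8, and muscle gave 133, 137, 77.2, 3.87, 250, 86.1, 19.8 and 5.78 CPM in animals 1 to 6, 8 and 9. In I the same animals 8, 4 and 3 were the lowest in this order, and animals 1, 2, 5, 6 and 7 were all at 118 CPM or more. M4, M9, M8 and M3 were the lowest of the muscle libraries, and the others were at 86.1 CPM or more. r with the mean of O and S was 0.96 in I (exact permutation test over 8 animals, p = 0.000595, adjusted p = 0.246) and 0.89 in M (p = 0.0059, adjusted p = 0.717). It was 0.84 in I without animals 4 and 8, 0.98 in I without animal 5, and 0.92 in M without animals 8 and 9. Without animal 4, whose muscle library went against its label, r in M was 0.94 (exact permutation p = 0.00119). For ENSBTAG00000022590, refits without 1 animal each gave r from 0.91 to 0.98 in I and from 0.85 to 0.94 in M.

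**Figure D4:**
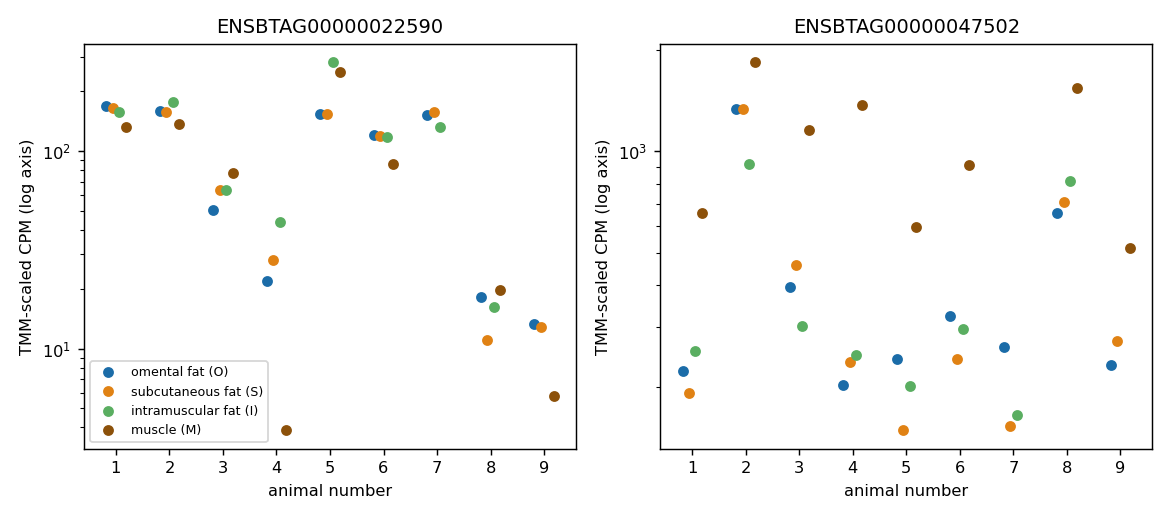
TMM-scaled CPM on log axes of 2 genes by animal number, with colours for the tissues and 1 point per library. ENSBTAG00000022590, at left, is low in animals 4, 8 and 9 in every tissue sampled (the muscle point of animal 4 is M4, which went against its label), and ENSBTAG00000047502, at right, is highest in animal 2 in every tissue, from 920 CPM in I to 1838 CPM in M.

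Group 3 held 3 genes that were high in animals 2 and 8. ENSBTAG00000047502 had the highest median CPM of the 37 (a value not corrected for gene length), at 262 in O, 241 in S, 276 in I and 1034 in M, and an r between O and S of 0.931. Omental fat gave 223, 1338, 396, 203, 241, 325, 262, 657 and 232 CPM in animals 1 to 9, and subcutaneous fat gave 192, 1334, 461, 237, 148, 241, 153, 707 and 273 CPM. Animal 2 stood above and animal 8 next, in both depots. Intramuscular fat gave 255, 920, 303, 248, 201, 297, 165 and 819 CPM in animals 1 to 8, and muscle gave 656, 1838, 1156, 1377, 598, 913, 1544 and 515 CPM in animals 1 to 6, 8 and 9. The same 2 animals led in I and in M. r was 0.95 in I (exact permutation p = 0.000198, adjusted p = 0.246) and 0.77 in M (p = 0.0207, adjusted p = 0.896). Much of this rested on animals 2 and 8, without which r was 0.73 in I and 0.45 in M. Without animal 5, r in I was 0.94. Without animal 4, r in M was 0.93 (exact permutation p = 0.00139). For ENSBTAG00000047502, refits without 1 animal each gave r from 0.92 to 0.96 in I and from 0.67 to 0.93 in M.

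ENSBTAG00000030543 had an r between O and S of 0.961. Omental fat gave 8, 24.4, 15.7, 12.4, 18.4, 33, 5.76, 36.5 and 9.86 CPM in animals 1 to 9, and subcutaneous fat gave 8.08, 38.7, 20, 21.9, 26.6, 49.3, 9.18, 57.6 and 19.5 CPM. Animals 8, 6 and 2 were the highest and 1 and 7 the lowest in both. Intramuscular fat gave 7.04, 16, 14.5, 10, 10, 29, 4.5 and 18.1 CPM in animals 1 to 8, and muscle gave 0, 2.27, 1.42, 2.11, 4.67, 4.48, 8.27 and 0.867 CPM in animals 1 to 6, 8 and 9. Animals 6, 8 and 2 were the highest in I too, and r in I was 0.91 (exact permutation p = 0.00141, adjusted p = 0.312), or 0.78 without animals 1 and 7 and 0.93 without animal 5. The r of 0.91 in M (0.93 without animal 4) is a description only, because M1 had 0 counts of this gene. For ENSBTAG00000030543, refits without 1 animal each gave r from 0.87 to 0.93 in I and from 0.84 to 0.95 in M.

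ENSBTAG00000040543 was low throughout, with an r between O and S of 0.903. Omental fat gave 3.2, 19.2, 10.7, 5.65, 4.6, 6.56, 3.34, 15.9 and 7.72 CPM in animals 1 to 9, and subcutaneous fat gave 3.44, 10.9, 5.77, 5.32, 3.68, 3.92, 3.02, 16.5 and 4.79 CPM. Animals 2 and 8 were highest in both. Intramuscular fat gave 3.41, 6.56, 6.29, 4.61, 1.31, 6.28, 3.45 and 6.25 CPM in animals 1 to 8, and muscle gave 0.832, 2.27, 0.566, 0.703, 0.584, 1.92, 4.31 and 0.289 CPM in animals 1 to 6, 8 and 9. I5 was lowest in I. With fewer than 10 counts in a library of I and M it was not tested, and its r was 0.63 in I, or 0.81 without animal 5, and 0.68 in M, or 0.67 without animal 4. For ENSBTAG00000040543, refits without 1 animal each gave r from 0.58 to 0.81 in I and from 0.42 to 0.78 in M.

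Group 2 held 4 genes, of which 3 are given in full, that were low in animal 2. ENSBTAG00000002069 had an r between O and S of 0.902. Omental fat gave 146, 30.9, 96.6, 49.2, 92.5, 150, 195, 192 and 121 CPM in animals 1 to 9, and subcutaneous fat gave 174, 32.1, 154, 80.8, 104, 150, 269, 129 and 137 CPM. Animal 2 was lowest in both, 6.33-fold below the highest in O and 8.37-fold in S. Intramuscular fat gave 165, 54, 138, 91, 404, 152, 181 and 285 CPM in animals 1 to 8, and muscle gave 138, 42.8, 185, 148, 167, 125, 536 and 107 CPM in animals 1 to 6, 8 and 9. Animal 2 was lowest in I and M as well, and I5 and M8 were the highest. r was 0.67 in I (exact permutation p = 0.0772) and 0.68 in M (p = 0.102), and they were -0.44 and 0.24 without animals 2 and 4. Single animals moved these values both ways. Without animal 5, r in I was 0.90, without animal 2 it was 0.27, and in M r was 0.73 without animal 4 and 0.23 without animal 2. For ENSBTAG00000002069, refits without 1 animal each gave r from 0.27 to 0.90 in I and from 0.23 to 0.74 in M.

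ENSBTAG00000046264 had an r between O and S of 0.925. Omental fat gave 21.3, 5.85, 15.3, 9.99, 11.5, 17.1, 19.3, 8.51 and 13.8 CPM in animals 1 to 9, and subcutaneous fat gave 21.7, 6.4, 14.3, 10.3, 14.6, 28.3, 27.4, 7.04 and 19.5 CPM. Animals 2 and 8 were the lowest in both. Intramuscular fat gave 20, 18.8, 19.8, 24.6, 36.4, 17.9, 21 and 11.2 CPM in animals 1 to 8, and muscle gave 3.75, 2.27, 3.96, 4.57, 11.7, 2.24, 11.5 and 3.18 CPM in animals 1 to 6, 8 and 9. Animal 8 was lowest in I but among the highest in M, with r of 0.22 in I (exact permutation p = 0.614) and -0.27 in M as a description. It was 0.35 in I without animal 5 and -0.15 without animal 8, and -0.27 in M without animal 4. For ENSBTAG00000046264, refits without 1 animal each gave r from -0.15 to 0.35 in I and from -0.75 to -0.0022 in M.

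ENSBTAG00000005182 had an r between O and S of 0.912 and the second highest r in I of all members. Omental fat gave 46.7, 25.6, 42.5, 36.2, 23.6, 48, 82.2, 32 and 41.6 CPM in animals 1 to 9, and subcutaneous fat gave 48.9, 30.5, 57.8, 30.6, 22.6, 49.7, 83.4, 23.2 and 44.9 CPM. Animal 7 was highest in both. Intramuscular fat gave 45, 28.8, 44.2, 40.3, 32.4, 45.2, 59.5 and 32.4 CPM in animals 1 to 8, and muscle gave 17.1, 15.9, 28.3, 14.8, 11.7, 31.7, 39.9 and 15.6 CPM in animals 1 to 6, 8 and 9. I7 was the highest and I2 the lowest in I, and r in I was 0.95 (exact permutation p = 0.000843, adjusted p = 0.279), or 0.92 without animals 5 and 7 and 0.96 without animal 5. In M, which has no library of animal 7, r was 0.31 (exact permutation p = 0.437), or 0.29 without animal 4, 0.02 without animal 5 and 0.77 without animal 8. For ENSBTAG00000005182, refits without 1 animal each gave r from 0.91 to 0.98 in I and from 0.02 to 0.77 in M. The 4th member, ENSBTAG00000017805, had r of 0.15 in I and 0.02 in M, or -0.35 and -0.79 without animals 1 and 2. Its r without animal 5 or animal 4 alone is not given.

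Group 4 held 2 genes that were low in animal 3 in O and S. ENSBTAG00000006474 had an r between O and S of 0.922. Omental fat gave 9.59, 2.78, 1.87, 7.72, 9.34, 6.56, 4.55, 2.88 and 6.08 CPM in animals 1 to 9, and subcutaneous fat gave 23.6, 9.6, 4.25, 16.4, 16.2, 13, 8.92, 4.42 and 11.5 CPM. Animals 3, 2 and 8 were the lowest in O. Intramuscular fat gave 5.97, 4.27, 5.42, 9.85, 28.9, 3.32, 5.4 and 6.76 CPM in animals 1 to 8, and muscle gave 2.5, 2.55, 3.68, 4.57, 9.92, 0.96, 5.75 and 4.62 CPM in animals 1 to 6, 8 and 9. I5 and M5 were the highest of their tissues. ENSBTAG00000001852 had an r between O and S of 0.933. Omental fat gave 23.8, 13.5, 11.9, 27.3, 26.7, 39.9, 17.1, 22.8 and 24.5 CPM in animals 1 to 9, and subcutaneous fat gave 38.5, 15.7, 12.6, 35.3, 27.8, 53.6, 27.7, 33.7 and 31 CPM. Animal 6 was highest and animal 3 lowest in both. Intramuscular fat gave 14.9, 10.7, 16.6, 28.6, 69.5, 12.4, 10.9 and 32.8 CPM in animals 1 to 8, and muscle gave 8.32, 8.51, 24.9, 32, 55.1, 18.6, 79.1 and 19.4 CPM in animals 1 to 6, 8 and 9. I5 was the highest I library here too and M8 and M5 the highest muscle libraries. r in I was 0.38 for ENSBTAG00000006474 and 0.22 for ENSBTAG00000001852, neither past an unadjusted p of 0.05, and levels in animal 5 were among the highest of both I and M. Without animal 5, r in I was 0.14 and 0.22 in the same order, and without animal 6 it was 0.51 for ENSBTAG00000001852. In M, r was -0.03 (a description) and 0.17, or -0.08 and 0.14 without animal 4, and without animal 2 it was -0.12 for ENSBTAG00000001852. For ENSBTAG00000006474, refits without 1 animal each gave r from 0.14 to 0.51 in I and from -0.34 to 0.12 in M. For ENSBTAG00000001852, refits without 1 animal each gave r from 0.04 to 0.51 in I and from -0.12 to 0.31 in M.

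Group 5 held 2 genes that were high in animal 4. ENSBTAG00000007075 had an r between O and S of 0.937. Omental fat gave 6.4, 3.95, 3.31, 17.1, 1.62, 3.8, 5.01, 7 and 7.23 CPM in animals 1 to 9, and subcutaneous fat gave 8.23, 3.68, 3.94, 20.4, 1.84, 4.82, 5.38, 4.75 and 11.8 CPM. Animal 4 was highest and animal 5 lowest in both, 10.6-fold and 11.1-fold apart. Intramuscular fat gave 4.9, 5.95, 4.89, 26.4, 10.6, 4.8, 5.4 and 8.45 CPM in animals 1 to 8, and muscle gave 3.33, 1.7, 4.24, 3.16, 2.33, 1.28, 7.91 and 2.31 CPM in animals 1 to 6, 8 and 9. I4 was the highest I library, while M4 was not set apart in M. r in I was 0.53 (exact permutation p = 0.194), or 0.21 without animals 4 and 5. It was 0.89 without animal 5 alone and -0.58 without animal 4 alone, so its sign depended on these 2 animals together. In M r was 0.19 as a description, or 0.20 without animal 4. For ENSBTAG00000007075, refits without 1 animal each gave r from -0.58 to 0.89 in I and from 0.13 to 0.28 in M. ENSBTAG00000014904 had an r between O and S of 0.940. Omental fat gave 43.7, 20.8, 19.1, 60.1, 25.3, 33.7, 43.5, 78.9 and 20.2 CPM in animals 1 to 9, and subcutaneous fat gave 30.1, 23.2, 20.5, 48.6, 19.4, 35, 32.7, 66.1 and 21.7 CPM. Animals 8 and 4 were the highest in both. Intramuscular fat gave 35.4, 31.4, 25.3, 77.3, 47.3, 33.4, 39.7 and 81.2 CPM in animals 1 to 8, and muscle gave 72.8, 68.1, 81.8, 76.6, 88.4, 92.5, 119 and 83.2 CPM in animals 1 to 6, 8 and 9. Both were also highest in I, with r of 0.82 (exact permutation p = 0.0129, adjusted p = 0.478), or 0.59 without animals 3 and 8 and 0.93 without animal 5. In M animal 8 alone was set apart, with r of 0.52 (exact permutation p = 0.193), or 0.71 without animal 4 and -0.11 without animal 8. For ENSBTAG00000014904, refits without 1 animal each gave r from 0.70 to 0.93 in I and from -0.11 to 0.71 in M.

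Group 6 was ENSBTAG00000003958 alone, with an r between O and S of 0.907. Omental fat gave 42.6, 28.2, 29.6, 32.4, 27.4, 52.7, 17.1, 18.5 and 21.5 CPM in animals 1 to 9, and subcutaneous fat gave 40.7, 40.5, 28.1, 42.5, 37.1, 58.2, 17.6, 24.2 and 26.7 CPM. Animal 6 was highest and animal 7 lowest in both. Intramuscular fat gave 24.1, 18.9, 26.7, 21, 26, 32.7, 16.1 and 10.3 CPM in animals 1 to 8, and muscle gave 8.32, 8.79, 8.49, 8.08, 10.5, 5.76, 10.1 and 5.49 CPM in animals 1 to 6, 8 and 9. I6 was the highest in I and I8 the lowest, with r of 0.76 (exact permutation p = 0.0293, adjusted p = 0.566), or 0.78 without animal 5, and r in M was -0.31 (p = 0.457), or -0.32 without animal 4 and 0.13 without animal 6. For ENSBTAG00000003958, refits without 1 animal each gave r from 0.66 to 0.82 in I and from -0.83 to 0.13 in M.

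Counted over all members, the Pearson r of I or M with the mean of O and S did not pass the corrected test for any gene. In I, 34 of the 37 could be tested, with 2 left out for low counts and ENSBTAG00000000995 because its animals fell into separate clusters. 0 of the 34 passed a Benjamini-Hochberg adjusted p of 0.05 in the exact permutation test, where 0.0% of 10313 genes passed, and the smallest p that 8 animals allow is 2.48e-05. At an unadjusted p of 0.05 with r above 0, 8 of the 34 passed, where 7.35% of all genes did, and without animal 5 12 of the 34 did, where 11.1% of all genes did. An r above 0.5 in I was seen in 13 of 37, where 21.4% of all genes reached it, and an r above 0 in 26 of 37, where 65.5% did. Without animal 5, 20 of the 37 had an r above 0.5 in I. The share of all genes there is not given, so nothing is read from that rise. In M, 26 could be tested, 0 passed after adjustment, where 0.0% of 8906 genes did, and 2 passed an unadjusted p of 0.05, where 4.41% did. Without animal 4 these were again 0 and 2, where 4.67% of all genes passed the unadjusted p. An r above 0.5 in M was seen in 9 of 37, where 17.0% of all genes reached it, and an r above 0 in 21 of 37, where 62.7% did. These shares in I and M are over the genes that could be tested, while the counts out of 37 include members that could not. Of the 9, ENSBTAG00000030543, ENSBTAG00000040543 and ENSBTAG00000008109 had too few counts in M for the test, and ENSBTAG00000040543 also in I. The 8 with r above 0.5 in both I and M included 2 of group 1. The share of all genes above 0.5 in both is not given, so nothing is read from this count. The adjusted test could hardly be passed in this design. A gene alone at the smallest p would have an adjusted p of 0.256 in I and 0.221 in M, and 6 genes in I or 5 in M would have to reach the smallest p for any to pass 0.05, so the counts of 0 say little. At the unadjusted p the members' share lay above that of all genes in I. The members were chosen for SDs of 0.5 or more, whereas the median SDs over 11514 genes were 0.311 in O and 0.325 in S. The share among the 562 genes that met every limit but r is not given, so the part of the choice in this excess was not tested.

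**Figure D5:**
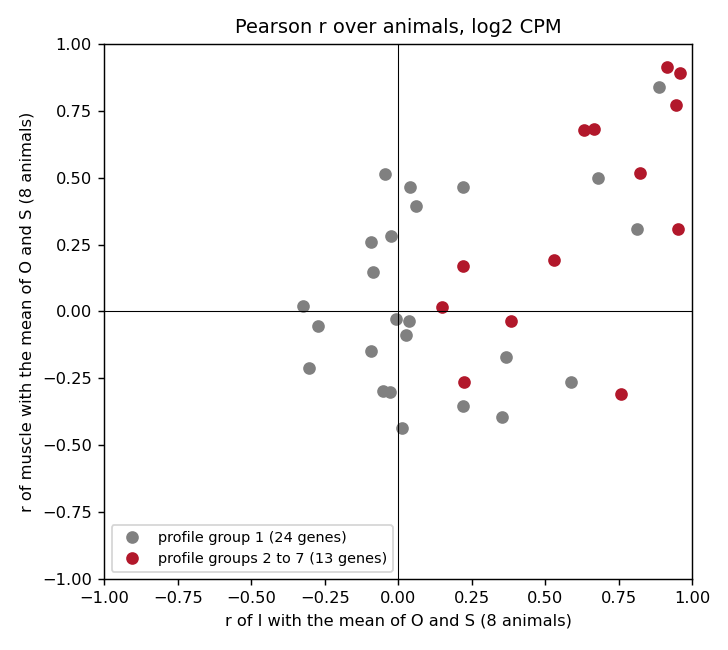
Each point is 1 of the 37 genes; the axes are the Pearson r over 8 animals of I (horizontal) and muscle (vertical) with the mean of O and S. The 24 genes of group 1, in grey, centre near 0 on both axes with medians of 0.02 and -0.03, and the 13 others, in red, have medians of 0.67 and 0.31.

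An animal effect was also sought in I and M alone, without reference to O and S, in the 7 animals with both libraries (edgeR quasi-likelihood F test with tissue and animal as terms). 0 of 37 members passed an adjusted p of 0.01, where 0.0402% of 12431 genes did. At an unadjusted p of 0.05, 15 of 37 passed, 9 of them in group 1, where 21.6% of all genes did. The test does not ask whether the animals that deviate are those of O and S. In group 1 the lowest medians in I and M were those of animal 5, at -1.96 and -0.49. That animal was at 0.06 in O and 0.26 in S. The lowest adjusted p among members were 0.0627 for ENSBTAG00000001852, 0.0649 for ENSBTAG00000006474, 0.0778 for ENSBTAG00000022590 and 0.0839 for ENSBTAG00000021396 of group 1. Without animal 4 the adjusted p of ENSBTAG00000022590 was 0.00526, and it was then the single member to pass, with 6 of 12464 genes passing in all. The DESeq2 likelihood ratio test called 10 of the 37, 4 of them in group 1, where it called 5.97% of all genes. Those outside group 1 were ENSBTAG00000022590, ENSBTAG00000047502, ENSBTAG00000001852, ENSBTAG00000006474, ENSBTAG00000002069 and ENSBTAG00000017805. For ENSBTAG00000001852 and ENSBTAG00000006474, animal 5 was among the highest in I and M. Their r with O and S was low, at 0.22 and 0.38 in I and 0.17 and -0.03 in M.

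No member differed between the labelled sexes past the threshold. Between female, castrated male and male animals, 0 of 37 members passed an adjusted p of 0.01 in I (edgeR quasi-likelihood F test), where 0.0146% of 13687 genes did, and 3 had an unadjusted p under 0.05, where 4.08% did. These 3 were ENSBTAG00000030543, ENSBTAG00000047502 and ENSBTAG00000005182. The first was high in I in the castrated males 2 and 8 and in male 6, but at 10 CPM in castrated male 5. The second was highest in I in castrated males 2 and 8, at 920 and 819 CPM, but at 201 CPM in castrated male 5. In M, 0 of 35 tested members passed, where 0.00828% of 12079 genes did, and 3 had an unadjusted p under 0.05, where 10.8% did, all in group 1 (ENSBTAG00000004189, ENSBTAG00000018718 and ENSBTAG00000037383). With M4 left out, 0 of 37 passed in M and 4 had an unadjusted p under 0.05, where 8.12% of 12713 genes did, in a fit with a single female library that was assumed to vary like the others.

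The profile of a library over all 37 genes was set beside the mean O and S profile of each animal. 4 of the 8 I libraries (I2, I3, I4 and I8) and 4 of the 8 muscle libraries (M1, M2, M3 and M9) had their highest r with their own animal. Among these, r was 0.87 for I2, 0.69 for I3, 0.86 for I4 and 0.84 for I8, and 0.35 for M1, 0.84 for M2, 0.27 for M3 and 0.69 for M9, so that M1 and M3 were only weakly like their own animal. I5 and M5 were closest to animal 6, at r of 0.83 and 0.76, and had r of -0.02 and 0.26 with their own animal. M4 was closest to animal 9, at 0.61, and had 0.43 with animal 4. The others had a low or negative r with their own animal, at 0.22 for I1, -0.12 for I6, 0.25 for I7, -0.13 for M6 and 0.15 for M8. These correlations are over genes, which are not independent replicates, and 24 of the 37 share the profile of group 1.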

How the data were processed

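The deposited tables hold whole-number read counts per Ensembl gene. Per the labels and the study's methods, the authors aligned reads to bosTau6 with TopHat2 2.0.2 and counted them with HTSeq 0.5.3p3. The 5 lines that name no gene, 63.3% to 71.1% of a table, were left out. The strand setting is not given in the sources used here. Pairs of libraries of a tissue were checked for duplicates (lowest chi-square per degree of freedom 12.0 over 128 pairs).

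Counts were scaled with TMM in edgeR 4.0.16 (R 4.3.3) with a prior count of 2. Correlations were tested by exact two-sided permutation over animals with Benjamini-Hochberg adjustment over all genes with 10 or more counts in every library, and members whose largest gap between animals exceeded 0.5 of the range got no test. Animal and sex effects used edgeR's quasi-likelihood F test after filterByExpr. Both were tested on simulated data. DESeq2 1.42.0, limma 3.58.1, other scalings, prior counts and filters, and leaving out each animal were alternatives. Libraries of the same number come from the same animal per the labels, which pairs them.

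The members, lists and tests were chosen with earlier results of these data known. Values in every library are given for the 3 members of each profile group with the largest smaller SD of O and S, the 3 with the highest r in I and the 3 with the highest r in M. Marker and pathway lists could not be applied, since 0 identifiers matched the reference's names.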

Additional observations from a re-analysis of the deposited data

Results flagged for a closer look

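Among the 16 genes given in every library, 64 sets of libraries (gene and tissue) were checked for a highest or lowest library whose gap to the next, as a share of the range of log2 CPM, exceeded Dixon's 95% critical value. 4 sets were singled out, and chance alone does so in about 1 in 20. 3 of the 4 were the low library I5. ENSBTAG00000010803 was at 1.31 CPM there, with the next lowest I library at 11.5 CPM. ENSBTAG00000021020 was at 7.86 CPM in I5, next to 23.6 CPM. ENSBTAG00000040543 was at 1.31 CPM in I5, next to 3.41 CPM, a low level. The 4th was ENSBTAG00000007075 in I4, at 26.4 CPM with the next highest at 10.6 CPM, and animal 4 was also highest for this gene in O and S. I5 and I4 had the highest shares of reads that did not align uniquely in I, at 15.4% and 13.1%, and their part in these values was not tested.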

How the results depend on the processing

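The number of genes that met the rule was 37. It was 198 at an r of 0.8, and with an animal left out it ran from 21 (without animal 6, 16 of the 37 among them) to 134 (without animal 3), and it was 76 without animal 1, so the list itself depends on single animals. Without scaling 23 of the 37 were kept, with a Spearman limit 15, and with a minimum of 20 counts 32. For r in I and in M, 0 members passed after adjustment under every alternative and without any animal, which is no sign of stability, since 6 genes in I and 5 in M would have to reach the smallest p with 8 animals, and 41 and 36 with 7. With an unadjusted p under 0.05, 6 to 12 members passed in I and 1 to 3 in M when an animal was left out (1 without animal 1, 2 or 5), and 4 in M with no count minimum there. The share of all genes at that p ran from 5.36% to 11.1% in I (11.1% without animal 5, where 12 members passed) and from 3.09% to 4.91% in M, and was 4.37% in M with no count minimum. The animal effect in I and M gave 2 members with no filter on low counts (23 at an unadjusted p under 0.05), 10 with DESeq2 and 0 to 1 without an animal (1 without animal 4), with 12 to 25 at an unadjusted p under 0.05 (25 without animal 8); the cause of the difference between tools was not tested. Over all genes, 26 of 19169 passed with no filter (18.1% at the unadjusted p), 742 of 12431 with DESeq2 and 0 to 9 without an animal, with 11.9% (without animal 5) to 25.01% (without animal 8) at the unadjusted p. For labelled sex 0 members passed under every alternative and without any animal, DESeq2 included. At an unadjusted p under 0.05 the number was 0 to 5 in I (0 without animal 1 or 7, 1 without animal 8, 5 without animal 2 or 5) and 1 to 11 in M (11 without animal 2, 1 without animal 9), 8 in M with no filter and 0 with females set against both kinds of male. The share of all genes at that p was 1.98% to 8.66% in I and 5.82% to 22.2% in M without an animal (22.2% without animal 2), 10.9% in M with no filter and 2.26% with females against both kinds of male. With I and M fitted together and the animal as a replicate block (limma), 0 members passed and 2 had an unadjusted p under 0.05, where 8.91% of 12447 genes did, which changed no call. Of 160 refits of r for single genes named with an unadjusted p under 0.05, 151 kept it, 9 lost it and none turned its sign. Low levels kept 10 members out of the test in M.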
